A study of Nicotiana tabacum with 54 samples.

Results

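The genes described here are 200 tobacco (Nicotiana tabacum) genes with mean expression in root and stalk and a low mean in leaf. They were chosen by measured values. For each of the 69500 genes the mean FPKM (fragments per kilobase of transcript scaled to library size, the unit the study names) was taken over the 18 libraries of each tissue. Genes with a leaf mean under 1 FPKM and with root and stalk means of at least 5 FPKM each were kept, which left 399 genes. The study's 59 glutathione S-transferases were to be dropped, and 0 of them met these limits. The 200 genes with the highest value of the lower mean, root or stalk, were then taken, and 199 ranked below them. The leaf, root and stalk means therefore chose the members. The low leaf level is given as a description with no test, and only the difference between root and stalk, the differences between materials and the covariation were examined.

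The study compared 6 tobacco materials, labelled Hongda, Basma, HxB, Va116, GDH88 and VxG88, in 3 tissues (root, stalk and leaf) with 3 libraries of each combination, 54 in all. The study's text names some materials otherwise (HG, GDH11 and VG) and does not mention Basma. Which label each of these names belongs to was not settled, and the names of the labels are used throughout. All plants were sampled after topping, the removal of the flowering shoot tip, and by the study's methods each replicate held 3 plants. No untreated or untopped group was analysed here, so every value describes topped plants. Each column has a number from 1 to 3, which the labels' replicate letters do not match, so a library is named by material and number, for example root Hongda 1.

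In a tobacco plant the root takes up water and minerals and is the main site of nicotine synthesis, which rises after topping. The stalk carries the vascular tissue that joins root and leaf, and the leaf is the main site of photosynthesis. Root and stalk share vascular and woody tissues that make up less of a leaf blade. The files and the reference table used here do not pair the gene identifiers with names or products, and 0 of the 200 members matched a row of that table. No function is given for any member, no sequence could be shown, and the members are grouped by their pattern. No marker gene was at hand to check the tissue labels directly. All 54 libraries were most like the mean of their own tissue over all genes.

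Some libraries stood apart or went against their labels. By the mean correlation with the other libraries of the same tissue over all genes, root Hongda 1, GDH88 1, HxB 1 and Basma 1 and stalk Hongda 3 and Va116 2 were lowest. The range was 0.815 to 0.915 in root and 0.841 to 0.906 in stalk. In a match of each library to the materials over genes that differ between them, 49 of 54 matched their own material. The 5 that matched another were leaf VxG88 2, stalk GDH88 1, stalk VxG88 1, root Basma 1 and root GDH88 2. Counts of members are given with and without these libraries. Of 1431 pairs of libraries, 0 were identical. In whole tissue, fewer cells of a type and less RNA per cell cannot be told apart.

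Over the 200 members the root means ran from 7.89 to 589 FPKM with a median of 19.4, and the stalk means from 8.0 to 1143 FPKM with a median of 22.1. Leaf means ran from 0 to 0.998 FPKM with a median of 0.393. Single root libraries held 190 to 200 members at 1 FPKM or more and single stalk libraries 182 to 198. A mean can still rest on few libraries. Nitab4.5_0015322g0010 had a stalk mean of 18.0 FPKM but a stalk median of 0.085, with 7 of 18 libraries at 1 FPKM or more. For Nitab4.5_0000119g0120 the stalk median of 0.86 FPKM was near its leaf mean of 0.90, with 9 of 18 stalk libraries at 1 FPKM or more. The members' summed FPKM was 4918 to 16898 in the root libraries, 5726 to 18161 in the stalk libraries and 49.9 to 204 in the leaf libraries. The last member by rank, Nitab4.5_0002167g0060, had a lower mean of 7.887 FPKM, and the first gene left out, Nitab4.5_0005726g0010, had 7.884. At the leaf limit Nitab4.5_0008031g0040 lay inside with a leaf mean of 0.998 FPKM and Nitab4.5_0000252g0150 outside with 1.006. The limits therefore cut through a continuous range of values.

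**Figure D1:**
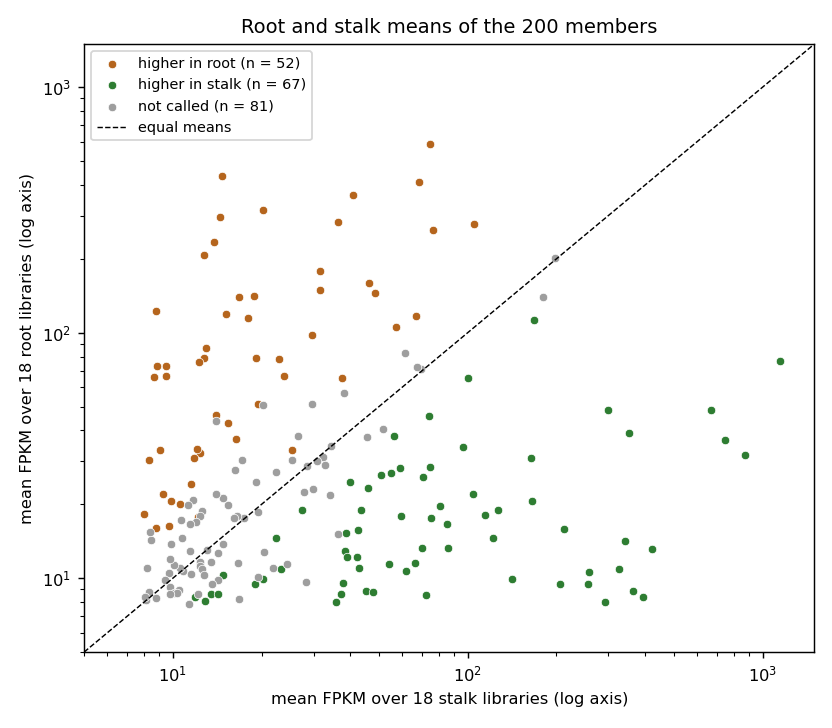
Mean FPKM of each of the 200 members over 18 stalk libraries (horizontal, log axis) and 18 root libraries (vertical, log axis). Colours give the result of the test of root against stalk. The 52 members higher in root lie above the line of equal means, the 67 higher in stalk below it, and the 81 not called mostly near it at low means.

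The first comparison asked how the members were balanced between root and stalk. Most of them differed between these tissues, some in each direction. Of the 200 members, 52 (26%) were higher in root and 67 (33.5%) were higher in stalk at a Benjamini-Hochberg adjusted p under 0.05 in limma on log2(FPKM + 1), and 81 passed in neither direction. Among all 40852 genes tested, 26.8% were higher in root and 41.3% higher in stalk, so the members' share higher in root was near that of all genes and their share higher in stalk was below it. The median size of the log2 fold change was 1.16 for the members and 0.52 for all genes. Calls past a log2 fold change of 1 in size covered 53% of the members and 25.6% of all genes. A size of 3 was reached by 31 members, a count that was not taken over all genes. The selection on root and stalk level bears on this comparison, since the scale understates changes of low genes. Among the 13202 genes whose root and stalk means both reached the lowest lower mean of the members, the median size was 0.43 and 17.7% were called past 1 in size. Of these genes 20.7% were higher in root and 42.2% higher in stalk. Beside them the members' share was above in root and below in stalk. All 200 members passed the filter on low values of each fit.

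The median signed log2 fold change of root over stalk was -0.09 over the members and -0.16 over all genes. This small shift depended on scaling. With quantile normalization the medians were 0.04 and -0.10, and with median scaling 0.08 and -0.01, so the direction of the members' median flipped with the scaling and it is read only against that of all genes. The counts were 54 higher in root and 60 higher in stalk with quantile normalization and 56 and 59 with median scaling. Of the calls over all genes, 39.4% were higher in root without scaling. This share was 41.9% with quantile normalization and 48.9% with median scaling, so it moved with the scaling too. The shares set beside all genes above were taken without scaling. Without the 6 libraries that stood apart 71 members were higher in root and 72 higher in stalk, of which 50 and 64 had been called before, and 0 changed direction. Without the root and stalk libraries that matched another material the counts were 50 and 66. Shares over all genes were not taken with libraries left out.

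The 52 members higher in root had root means of 16.0 to 589 FPKM with a median of 78.4, and stalk means of 8.0 to 105 FPKM with a median of 14.9. Their log2 fold changes ran from 0.48 to 5.43 with a median of 2.03. In 38 of the 52 the root mean lay above the stalk mean in 6 of 6 materials. The 67 members higher in stalk mirrored this, with stalk means of 11.9 to 1143 FPKM and a median of 70.6, and root means of 7.97 to 112 FPKM and a median of 14.5. Their log2 fold changes ran from -5.56 to -0.55 with a median of -2.10, and 53 of the 67 were higher in stalk in 6 of 6 materials. Both classes were picked by a test on the same libraries, so agreement across materials is partly built in. It was not counted over all genes. The 81 members not called had median means of 15.2 FPKM in root and 14.2 FPKM in stalk, close to the lower side of each called class, and root means of up to 202 FPKM. Of these, 51 had a log2 fold change under 0.5 in size, and 4 reached 1 without passing the test.

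Separation of single libraries was rare. For 3 members (1.5%) the lowest root library lay above the highest stalk library, where 4.93% of all genes tested did so. For 10 members (5.0%) the lowest stalk library lay above the highest root library, against 3.6% of all genes tested. The former share was below that of all genes and the latter somewhat above it, on 3 and 10 members.

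The largest rise in root was that of Nitab4.5_0000119g0120. Its root values were 4.94, 944.99 and 972.25 FPKM in Hongda, 13.92, 1073.49 and 351.89 in Basma, 19.18, 568.73 and 663.69 in HxB, 62.11, 782.53 and 113.11 in Va116, 281.34, 212.33 and 233.56 in GDH88, and 990.61, 280.58 and 284.94 in VxG88, for libraries 1, 2 and 3. Its stalk values ran from 0.11 to 84.39 FPKM with a median of 0.86. The root libraries Hongda 1, Basma 1 and HxB 1 were far below the others, and 6 stalk libraries reached values above that of root HxB 1. The stalk values above 19 FPKM came from Hongda 1, Basma 3, HxB 3, Va116 2, GDH88 2 and VxG88 2, which is 1 library in each material. The log2 fold change was 5.43 (SE 0.77) with an adjusted p of 2.4e-07 (limma), and root lay above stalk in 6 of 6 materials, although the groups overlapped.

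Nitab4.5_0005283g0040 followed the same libraries. In root it ran from 17.8 to 602 FPKM with a median of 163, and its 3 lowest root libraries were again Hongda 1, Basma 1 and HxB 1 with 17.79, 34.42 and 35.07 FPKM. In stalk it ran from 0.18 to 70.6 FPKM with a median of 3.28, and VxG88 2, Va116 2, GDH88 2 and Hongda 1 were the highest with 70.62, 39.44, 37.39 and 37.21 FPKM. The log2 fold change was 4.78 (SE 0.58) with an adjusted p of 1.2e-08 (limma), higher in root in 6 of 6 materials.

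The members highest in stalk were more even. Nitab4.5_0005150g0070 had stalk values of 690.09, 768.55 and 74.10 FPKM in Hongda, 333.24, 595.07 and 250.96 in Basma, 100.80, 145.41 and 378.46 in HxB, 290.40, 191.14 and 384.37 in Va116, 376.40, 408.09 and 524.38 in GDH88, and 618.41, 444.24 and 527.82 in VxG88. Its root values ran from 0.76 to 28.2 FPKM with a median of 5.54. Every stalk library, Hongda 3 included, lay above every root library. The log2 fold change was -5.56 (SE 0.34) with an adjusted p of 1.2e-15 (limma).

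Nitab4.5_0000044g0150 separated the tissues in the same way, with 63.0 to 623 FPKM in stalk (median 377) and 1.19 to 28.2 FPKM in root (median 6.66). Its lowest stalk value was again that of Hongda 3, at 63.02 FPKM. The log2 fold change was -5.45 (SE 0.30) with an adjusted p of 8.1e-17 (limma), higher in stalk in 6 of 6 materials. In leaf this gene never passed 0.10 FPKM.

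**Figure D2:**
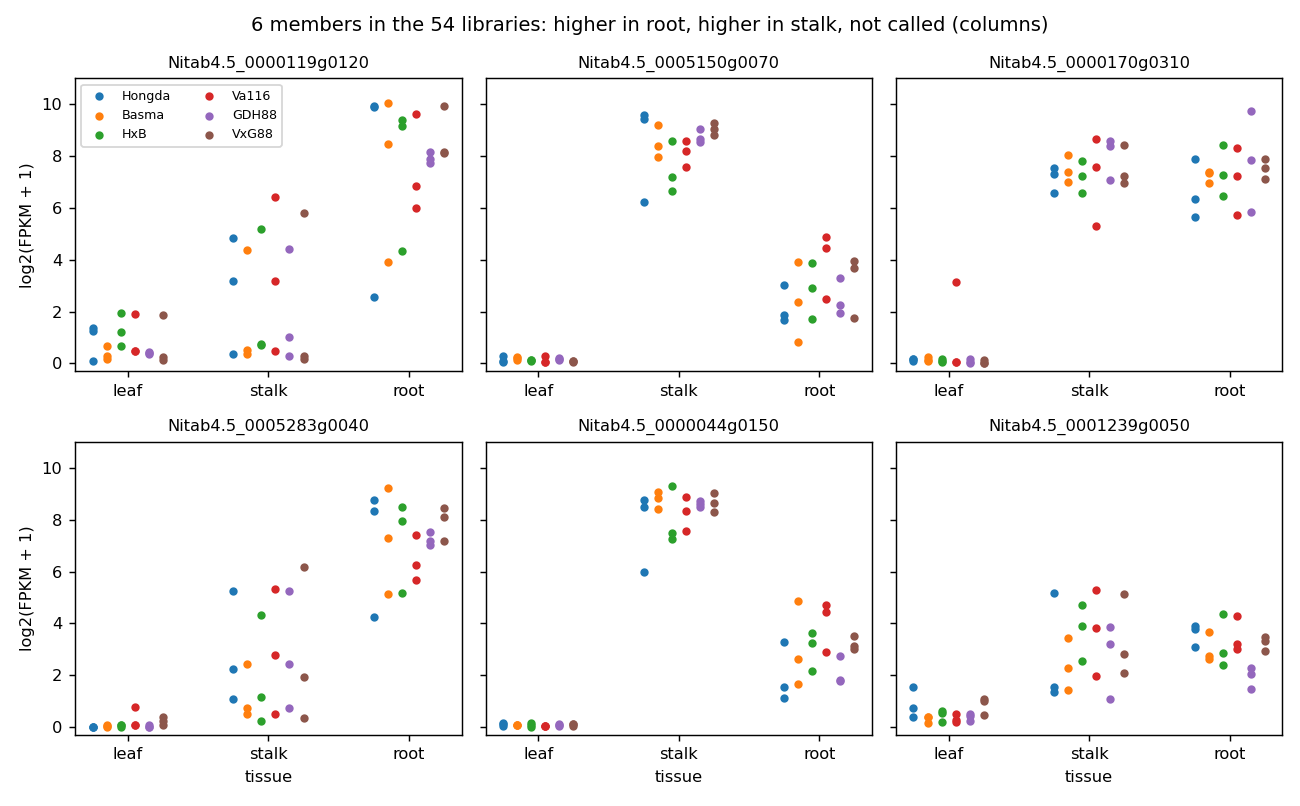
log2(FPKM + 1) of 6 members in leaf, stalk and root, 1 point per library and 1 colour per material. The left column shows the members with the largest rises in root, the middle column those with the largest rises in stalk, and the right column 2 members not called. Root and stalk overlap in the left column and not in the middle one, and Nitab4.5_0000170g0310 shows a single raised leaf library, Va116 3.

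The members with the highest lower mean were abundant in both tissues. Nitab4.5_0000170g0310 had a root mean of 202 ± 187 FPKM (SD, n = 18) and a stalk mean of 198 ± 105 FPKM (SD, n = 18). Its root values were 49.9 to 866 FPKM and its stalk values 39.0 to 399 FPKM, which overlapped almost fully, and the log2 fold change of -0.15 (SE 0.31) did not pass (adjusted p = 0.67, limma). Its highest root library was GDH88 1 and its lowest stalk library Va116 2, both among the libraries that stood apart. Nitab4.5_0000807g0210 had 140 ± 131 FPKM in root and 181 ± 101 FPKM in stalk (SD, n = 18), with a log2 fold change of -0.56 (SE 0.31) and an adjusted p of 0.11 (limma). Its highest and lowest libraries were the same as those of Nitab4.5_0000170g0310, root GDH88 1 at 597.79 FPKM and stalk Va116 2 at 28.90 FPKM.

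Nitab4.5_0011894g0010, the third by this rank, had 112 ± 124 FPKM in root and 167 ± 97.6 FPKM in stalk (SD, n = 18). Its log2 fold change of -1.02 (SE 0.42) passed the threshold (adjusted p = 0.029, limma), with stalk above root in 5 of 6 materials. The call was lost in 12 of 57 alternative settings, with an adjusted p of up to 0.21 when Hongda was left out. In Hongda its root values were 19.40, 9.63 and 38.12 FPKM and its stalk values 292.06, 102.84 and 122.59 FPKM, whereas in GDH88 the root values were 540.91, 154.11 and 127.15 FPKM and the stalk values 115.41, 306.45 and 355.19 FPKM. Hongda separated the tissues for this gene and GDH88 did not. The GDH88 values include root GDH88 1, which stood apart, and root GDH88 2 and stalk GDH88 1, which matched another material. The Hongda values include root Hongda 1 and stalk Hongda 3, which stood apart.

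The 2 members with the smallest log2 fold changes were of low abundance in both tissues. Nitab4.5_0004085g0050 had 8.74 ± 4.21 FPKM in root and 10.1 ± 7.08 FPKM in stalk (SD, n = 18), a log2 fold change of 0.01 (SE 0.26). Its stalk values were 2.93, 1.06 and 2.61 FPKM in Va116 and 9.58, 8.08 and 8.25 FPKM in Basma, so Va116 was low in all 3 stalk libraries. The F test among materials in stalk did not pass for it (adjusted p = 0.96, limma). Nitab4.5_0001239g0050 had 8.63 ± 5.01 FPKM in root and 12.2 ± 12.5 FPKM in stalk, a log2 fold change of -0.01 (SE 0.36), and its stalk values ran from 1.11 to 38.5 FPKM.

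The second comparison asked whether the members differed between the 6 materials within a tissue. In root 0 of the 200 members passed the F test of limma over 18 libraries at an adjusted p under 0.05, where 0.307% of the 38399 genes tested passed. In stalk 1 member (0.5%) passed, where 0.403% of the 35994 genes tested passed. At an unadjusted p under 0.05 there were 17 members (8.5%) in root and 20 (10%) in stalk, above the 5.14% and 5.32% of all genes. In contrasts of 1 material with the mean of the other 5, where a call also needed a 2-fold change on the log2(FPKM + 1) scale, 0 of 1200 tests of members passed in root and 1 of 1200 in stalk. Over all genes 0.0812% of these tests passed in root and 0.123% in stalk. With at most 1 call in each of these 4 cases, the members' counts after adjustment cannot be told from the background.

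The member that passed was Nitab4.5_0000681g0160, and what set it apart was the stalk of Hongda. Its stalk values in Hongda were 0.06, 0.07 and 0.03 FPKM. In the other materials the stalk values were 28.10, 33.01 and 50.01 FPKM in Basma, 33.08, 44.12 and 100.21 in HxB, 4.37, 19.05 and 9.24 in Va116, 26.87, 42.19 and 4.46 in GDH88, and 30.17, 26.85 and 4.31 in VxG88. The Hongda libraries were all under 0.1 FPKM and the other 15 all above 4 FPKM. The contrast of Hongda with the other 5 gave a log2 fold change of -4.45 (SE 0.59) with an adjusted p of 0.0017, and the F test gave an adjusted p of 0.016 (both limma). Without any 1 of the 3 Hongda stalk libraries the F test no longer passed, with adjusted p of 0.10, 0.098 and 0.11, and it also failed without Basma (0.058), without HxB (0.075) and without the libraries that stood apart (0.12). The contrast passed in 29 of 31 alternative settings. It failed without replicate 1 (0.12) and without replicate 2 (0.15), fits that hold 2 libraries per material.

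In root the same gene was not absent from Hongda. Its root values there were 0.64, 11.92 and 21.92 FPKM, a mean of 11.5 ± 10.6 FPKM (SD, n = 3), and the other root libraries ran from 11.4 to 109 FPKM. The F test in root did not pass (unadjusted p = 0.074 and adjusted p of 1.0, limma), nor did the interaction of tissue and material (unadjusted p = 0.069, adjusted p of 1.0). A difference between the tissues in how Hongda behaved was therefore not shown for this gene. Its own comparison of root with stalk gave a log2 fold change of 0.87 (SE 0.38) and an adjusted p of 0.041, which was lost in 20 of 57 alternative settings.

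**Figure D3:**
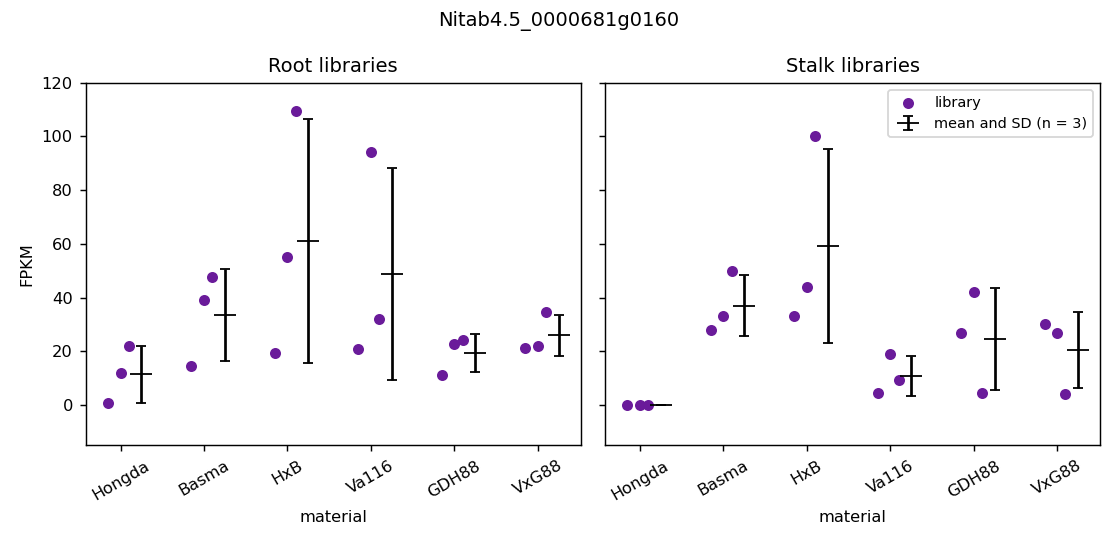
FPKM of Nitab4.5_0000681g0160 by material in 18 root and 18 stalk libraries (points), with the mean and SD of 3 libraries beside them. In stalk the 3 Hongda libraries lie at 0.03 to 0.07 FPKM and every other library at 4.31 FPKM or above, and in root 1 Hongda library lies at 0.64 FPKM and the others at 11.92 and 21.92 FPKM.

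The members next in order did not pass over all genes. In root the smallest adjusted p were those of Nitab4.5_0003374g0040 (0.061) and Nitab4.5_0003011g0010 (0.071, both limma). Nitab4.5_0003374g0040 had root values of 52.12, 28.81 and 28.81 FPKM in Va116, 9.37, 28.09 and 29.46 in VxG88, 26.09, 8.90 and 10.78 in Hongda, 1.54, 30.72 and 1.52 in GDH88, 2.39, 0.58 and 0.95 in Basma, and 2.07, 0.79 and 0.25 in HxB. Va116 was highest, Basma and HxB were lowest, and GDH88 was split between its libraries. The library raised in GDH88 is GDH88 2, which matched VxG88 in the comparison of libraries with materials. In stalk the gene ran from 2.98 to 481 FPKM, with HxB again low at 2.98, 3.85 and 11.33 FPKM. The F test in root passed in 6 of 37 alternative settings, with the smallest adjusted p at 0.00041.

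Nitab4.5_0003011g0010 was highest in root of GDH88 at 15.43, 27.66 and 26.70 FPKM and lowest in root of Hongda at 4.62, 2.43 and 1.52 FPKM. In stalk GDH88 was the lowest, at 7.69, 1.07 and 0.93 FPKM, and Hongda had 5.95, 7.17 and 28.22 FPKM. By their means these materials stood in opposite order in the 2 tissues, and this gene also had the smallest adjusted p of the members for the interaction of tissue and material, 0.28 (limma), which does not pass. These values include root GDH88 2 and stalk GDH88 1, which matched another material. They also include root Hongda 1, root GDH88 1 and stalk Hongda 3, which stood apart.

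Nitab4.5_0012948g0010 came next in stalk (adjusted p = 0.18, limma). It was highest in Va116, at 7.94, 41.00 and 57.54 FPKM, and in HxB, at 18.84, 23.95 and 9.71 FPKM, and lowest in GDH88, at 2.22, 2.13 and 3.68 FPKM. In root its material means lay closer together, from 26.6 FPKM in Basma to 48.7 FPKM in VxG88. Root lay above stalk for it with a log2 fold change of 1.87 (SE 0.29) and an adjusted p of 1.2e-06, in 5 of 6 materials, Va116 being the exception.

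The third comparison asked whether the balance of root and stalk itself differed between materials. It was tested as the interaction of tissue and material over 36 libraries. Of the members 0 passed, where 0.0465% of the 40852 genes tested passed, and 10 members (5.0%) had an unadjusted p under 0.05 beside 3.32% of all genes. After Nitab4.5_0003011g0010 the smallest adjusted p was that of Nitab4.5_0007966g0010 (0.41, limma). Its values in Hongda were 2.29, 2.23 and 2.47 FPKM in root and 76.97, 9.52 and 21.45 FPKM in stalk. In GDH88 they were 94.66, 21.92 and 55.53 FPKM in root and 8.6, 19.59 and 9.64 FPKM in stalk. Every Hongda stalk library lay above every Hongda root library and every GDH88 root library above every GDH88 stalk library, but the interaction did not pass over all genes. Of these libraries root GDH88 2 and stalk GDH88 1 matched another material. Root Hongda 1, root GDH88 1 and stalk Hongda 3 stood apart.

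By material means, each of the 6 materials was the highest for some members and the lowest for others. In root GDH88 held the highest mean for 66 members and Hongda the lowest for 71. In stalk Va116 held the highest mean for 56 members and also the lowest for 49, and VxG88 was the highest for 16 and the lowest for 8. Such counts were not taken over all genes, so they are not read as a trait of the members. The counts of GDH88 and Va116 rest in part on single libraries, since root GDH88 1 held the highest root value for 49 members and stalk Va116 2 the highest stalk value for 33. Both are libraries that stood apart, and their part in these counts was not tested further. The 6 material means of a member were weakly alike in root and stalk, with a median Pearson r of 0.17 over the members and 0.06 over all genes, each over 6 materials.

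The spread between libraries of 1 material was large for the members. The median SD of log2(FPKM + 1) within a material was 1.09 in root and 1.03 in stalk, and over all genes tested it was 0.48 and 0.38. It passed 1 for 118 members (59%) in root and 108 (54%) in stalk, and for 8.91% and 8.85% of all genes. Genes at the members' levels did not vary as much. The 15845 genes with a root mean at or above the lowest root mean of the members had a median of 0.47, with 13.4% over 1, and the 17137 genes chosen so in stalk had a median of 0.37, with 11.6% over 1. The median SD between material means was 0.53 for the members in root and 0.56 in stalk, and 0.24 and 0.20 over all genes. A mean of 3 libraries with the within-material spread above would alone vary by 0.63 in root and 0.59 in stalk. The members' median spread between material means was no larger than these values. For all genes it was 0.24 against 0.28 in root and 0.20 against 0.22 in stalk. The members higher in stalk went the other way, with 0.66 against 0.61 in root and 0.516 against 0.510 in stalk. Those higher in root and those not called stayed below in each tissue. These differences between medians were not tested.

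Much of the spread between libraries ran through whole libraries. The leading principal component of the members explained 45.1% of their variance over 18 root libraries and 42.5% over 18 stalk libraries. Its correlation with the leading component of all genes was 0.98 in root and 0.99 in stalk, so the members and the transcriptome at large separated the libraries alike. In root 35 of the 52 members higher in root had a correlation over 0.5 with it and 3 a correlation under -0.5, while of the 67 higher in stalk 5 were over 0.5 and 23 under -0.5. In stalk the counts were 25 and 2 for the members higher in root and 3 and 19 for those higher in stalk. The component was computed from these same members. Its sign was set to follow the mean of those higher in root, so the direction of these counts was partly fixed in advance. No such counts were made over all genes.

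The levels by library show which libraries these were. The median of log2(FPKM + 1) over the members higher in root was 4.27 in root Hongda 1, 4.71 in Basma 1 and 4.64 in HxB 1, with Va116 3 at 5.10 and Va116 1 at 5.31, and 5.74 to 6.82 in the other 13 root libraries. In stalk the same members stood at 5.33 in Va116 2 and 4.80 in VxG88 2, and at 2.47 to 4.26 in the other 16. The members higher in stalk had their lowest stalk medians in Hongda 3 (4.73) and Va116 2 (5.21), against 5.78 to 6.52 elsewhere. In stalk Va116 2 the members higher in root exceeded those higher in stalk, 5.33 against 5.21, and in every other stalk library they were below them.

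**Figure D4:**
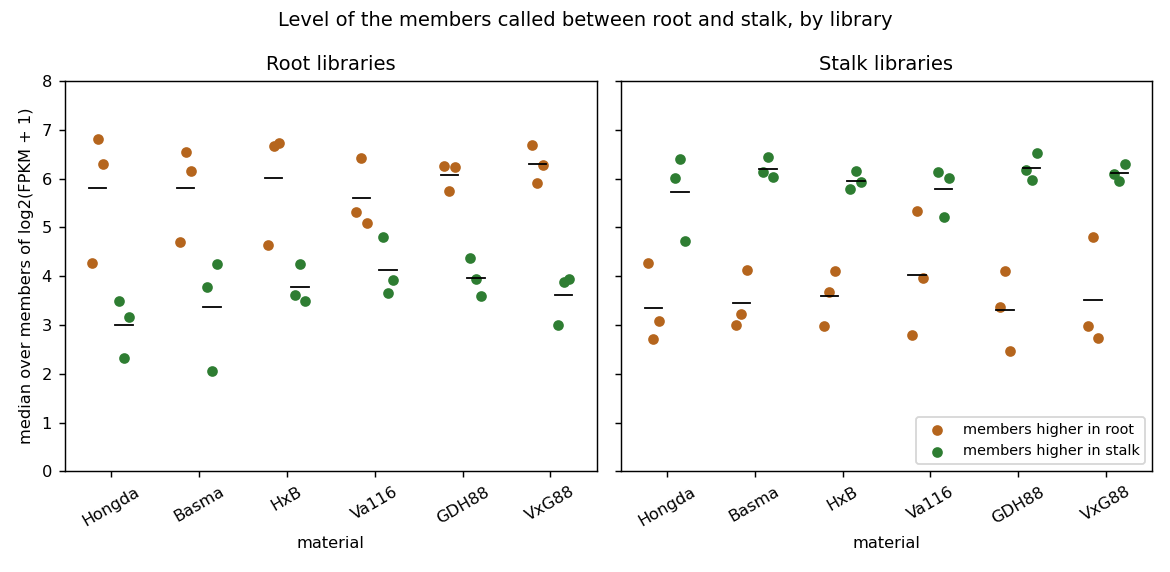
Median of log2(FPKM + 1) over the 52 members higher in root and the 67 higher in stalk, in each root and stalk library by material (points), with the mean of 3 libraries as a bar. In root the members higher in root drop to 4.27, 4.71 and 4.64 in Hongda 1, Basma 1 and HxB 1, and in stalk they rise to 5.33 in Va116 2.

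Covariation was described as the Pearson correlation of log2(FPKM + 1) between pairs of members over the 18 libraries of a tissue. These points share their libraries and so also the differences between libraries given above. Over all 19900 pairs the median r was 0.09 in root and 0.05 in stalk, near the 0.13 and 0.06 of all pairs of genes tested. Within the classes the pairs were more alike than over all pairs of members. The members higher in root had a median r of 0.36 with each other in root and 0.16 in stalk, where all genes higher in root had 0.03 in each tissue. The members higher in stalk had 0.32 in root and 0.29 in stalk, where all genes higher in stalk had 0.33 and 0.14. The genes of these backgrounds were not matched to the members in level or in spread between libraries. Between the 2 classes the medians were -0.06 in root and -0.08 in stalk, where all genes so called had 0.06 and -0.02. With the material means removed the medians among members higher in root were 0.45 and 0.21. All genes higher in root then had 0.03 in each tissue. Among members higher in stalk the medians were 0.35 and 0.30, and all genes higher in stalk had 0.40 and 0.13. Without the libraries that stood apart the median among members higher in stalk fell to 0.07 in stalk and was 0.50 in root.

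A small number of pairs moved almost in step. In 53 of the 19900 pairs (0.266%) r was over 0.9 in root and in stalk alike, a share that was 0.0045% among all pairs of the 33815 genes kept in both tissues. These pairs linked 43 members into 9 groups, of which 6 were single pairs and the largest held 16, 11 and 4 genes. The groups were formed from these values and carry no test. The genes behind the 0.0045% were not matched to the members in level or spread between libraries, so the shares are not directly comparable. Without the 6 libraries that stood apart 32 pairs were over 0.9 in both tissues and 17 of the 53 were among them, so most of these pairs rest in part on those libraries.

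The group of 16 genes held 11 members higher in root and 5 not called, among them Nitab4.5_0000119g0120, Nitab4.5_0005283g0040, Nitab4.5_0015322g0010 and Nitab4.5_0013202g0010. Its 21 pairs over the limit form a chain, since the least alike of its genes had an r of 0.16 in root and 0.27 in stalk. The mean of log2(FPKM + 1) over the group, given back as FPKM, ran from 5.66 to 178 in root with a median of 62.9. In stalk it ran from 1.22 to 61.8 with a median of 4.48. Stalk fell into low and high libraries. The group stood at 1.22 to 4.83 FPKM in 10 stalk libraries and at 11.5 to 61.8 FPKM in the other 8, and each of the 6 materials had at least 1 of these 8. Without the libraries that stood apart 8 of the 21 pairs remained over 0.9.

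The group of 11 genes was made up wholly of members higher in stalk, with log2 fold changes from -5.45 to -3.85. It held the member with the highest stalk mean, and its stalk means were 141 to 1143 FPKM and root means of 7.97 to 76.4 FPKM. Over the group the stalk level ran from 43.9 FPKM in Hongda 3 to 687 FPKM in Basma 2 with a median of 439, and the root level from 2.88 FPKM in Basma 2 to 53.1 FPKM in Va116 1 with a median of 16.0. Root Va116 1 was the only root library above the lowest stalk library. Stalk Hongda 3 is among the libraries that stood apart, and without these 3 of the 22 pairs of the group remained over 0.9. The group of 4 genes, also higher in stalk, kept all 4 of its pairs, with stalk means of 39.0 to 127 FPKM and root means of 12.2 to 19.0 FPKM. Its tissues overlapped, since 15 of 18 root libraries lay above its lowest stalk library, Hongda 3 at 3.95 FPKM.

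**Figure D5:**
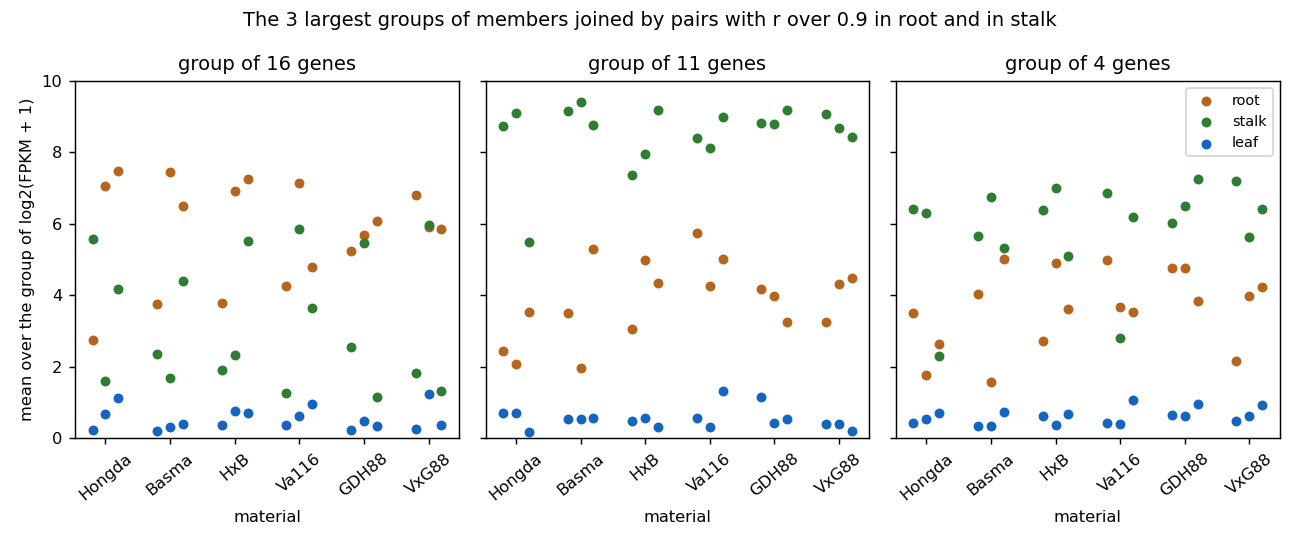
Mean of log2(FPKM + 1) over the 16, 11 and 4 genes of the 3 largest groups, in root, stalk and leaf libraries by material (3 points per tissue and material). The group of 16 genes overlaps between root and stalk, with 8 stalk libraries above its lowest root library. The group of 11 genes is separated except for root Va116 1 and stalk Hongda 3, and its leaf libraries lie at 0.12 to 1.51 FPKM. The group of 4 genes overlaps, with 15 of 18 root libraries above its lowest stalk library.

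The pairs most and least alike after removal of the material means were as follows. In stalk Nitab4.5_0007169g0010 and Nitab4.5_0000170g0050, both of the group of 11 genes, had an r of 0.997 over 18 libraries and of 0.98 in root on the values themselves. Their stalk levels in Hongda were 665.77, 1132.17 and 39.48 FPKM and 742.90, 1285.22 and 59.00 FPKM, both lowest in library 3. In root Nitab4.5_0005105g0020 and Nitab4.5_0000404g0200 were the most alike with an r of 0.99. In VxG88 their root levels were 149.02, 7.33 and 18.68 FPKM and 131.54, 6.09 and 14.42 FPKM. Tobacco is an allotetraploid with closely related gene copies, and reads of near-identical copies can be divided between genes when expression is estimated, so the values of such pairs are uncertain as separate measurements, and whether these are such copies was not tested.

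The pairs of opposite course joined a member higher in root with one higher in stalk. In root Nitab4.5_0015322g0010 and Nitab4.5_0000445g0130 had an r of -0.99 after removal of the material means and of -0.95 on the values. In root Hongda, Basma and HxB the former stood at 3.15, 3.09 and 4.5 FPKM in library 1, and at 59.69 to 395.12 FPKM in libraries 2 and 3. The latter stood at 16.75, 31.25 and 33.97 FPKM in library 1 and at 0.56 to 2.99 FPKM in libraries 2 and 3. In stalk Nitab4.5_0013202g0010 and Nitab4.5_0000850g0040 had an r of -0.98 after removal of the material means. Their VxG88 stalk values were 4.97, 220.86 and 7.21 FPKM and 129.62, 23.04 and 151.92 FPKM, with VxG88 2 high in the former and low in the latter.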

How the data were processed

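RNA was extracted with TRIzol, libraries were made with a TruSeq kit and sequenced as read pairs on Illumina instruments, per the labels. HISAT2, StringTie and RSEM appear in the submitters' processing notes. As to versions, genome build and annotation, these were not given in the sources used here. Per tissue, the authors deposited 1 table of FPKM. That unit is taken from the study's text. Library sums were alike, 768375 to 832327, as TPM with some genes left out would also give, so the values may be TPM. No counts were used, so depth is unknown and no counting interval is given.

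Members and lists were chosen with earlier results of these data known. Values were analysed as log2(FPKM + 1) with limma 3.58.1 (trend, R 4.3.3) for genes that reached 1 FPKM in 3 or more of the libraries fitted, and p-values were adjusted over all genes kept. Root against stalk was fitted with material as a term over 36 libraries, materials over the 18 libraries of a tissue. Fold changes on this scale understate those of low genes. The scripts were tested on simulated data. Descriptions used Python 3.11.15, numpy 2.4.6 and pandas 2.3.3.

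Named are the 3 members with the highest lower mean, the 2 largest changes in each direction seen in 6 of 6 materials, the 2 smallest changes, the 2 smallest adjusted p of each F test, any member called in a material contrast, the most and least alike pairs, and the genes at the limits. Genes named for a group or a leaf value were chosen after their values were seen. Word lists on gene products were not used, as no product was at hand.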

Additional observations from a re-analysis of the deposited data

How the results depend on the processing

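Of 336 values of the counts and medians under alternative settings, 296 stayed within the range called unchanged and 40 moved. For counts this range was a fixed ratio to the main count, wide enough to hold a change from 52 to 71. A reversal could not be recorded for such values. Members higher in root numbered 42 (without replicate 3) to 71, and higher in stalk 56 (without replicate 2) to 73 (all 54 libraries in the fit). The interaction called 0 members in every setting. Except for root against stalk under quantile normalization and median scaling, calls over all genes were not counted in the alternative settings. Changes in the members' counts, here and below, are therefore not read as particular to the members.

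Materials in root called 1 member with a pseudocount of 0.1, without Basma and without GDH88, 2 with quantile normalization and with median scaling, and 0 to 1 with a replicate left out. The material contrasts in root called 1 with median scaling and 0 to 2 with a replicate left out. Materials in stalk called 0 without Hongda, without Basma and without HxB, and 0 to 3 with a replicate left out (3 without stalk Va116 1). The contrasts in stalk called 0 (without replicate 2) to 5 (without stalk Va116 1). The cause was not tested.

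Some libraries were left out after seeing the data. Without those that matched another material, materials in root called 2 members and the contrasts 4, with no count over all genes beside them. Without those that stood apart these counts were 2 and 3, materials in stalk called 0, and the median r of all members in stalk was 0.017. That median was -0.0097 on FPKM and 0.076 on residuals from the material means. In root it was 0.012 on FPKM and 0.079 to 0.118 with a replicate left out.

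The column numbers gave no consistent pairing of root with stalk. Libraries of the same material and number had a mean correlation of -0.022, above 0.1 in 6 of 18. Most like their own number were 5 of 18, namely Va116 1, 2 and 3, Basma 3 and HxB 3. Whether some numbers do pair the tissues was not settled. In root, libraries of the same number in different materials had a mean correlation of 0.127, from -0.498 to 0.844 and above 0.1 in 24 of 45, and the 4 root libraries that stood apart all carry number 1. In stalk that mean was -0.022. With the number as a replicate block 53 members were higher in root and 71 in stalk, and within materials 54 and 67. The block called 0 members for the interaction, 0 between materials in root and 1 in stalk.

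A leaf limit of 0.5 FPKM left 240 genes and kept 117 of the 200 members. A limit of 2 FPKM left 712 and kept 101. Precision is limited by 3 libraries per group and by unknown depth.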

Other observations

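In leaf the members were low but not silent. Of the 200 members 2 were at 0 FPKM in all 18 leaf libraries and 83 stayed under 1 FPKM in all of them. The other 117 reached 1 FPKM in at least 1 leaf library, 1 of them in 9 or more, and 15 reached 5 FPKM in at least 1. A single library stood out. The summed FPKM of the members was 49.9 to 127 in the other 17 leaf libraries and 204 in Va116 3, which held the highest leaf value of 56 members. Nitab4.5_0002707g0040 had 8.23 FPKM there and at most 0.66 in the others, and Nitab4.5_0000170g0310 had 7.87 FPKM there and at most 0.20 in the others. Over all genes this leaf library had the lowest correlation with the leaf mean, 0.940, and its correlation with the root and stalk means, 0.671 and 0.702, lay within the range of the other leaf libraries.

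By the scaffold part of the identifier the members lie on 193 scaffolds, and 5 of these hold 2 or more members, 12 in all. In 3 of the 9 pairs on the same scaffold the gene numbers differ by 10, the step between genes listed next to each other. Nitab4.5_0000170g0300 and Nitab4.5_0000170g0310 had an r of 0.90 in root and 0.85 in stalk, Nitab4.5_0010979g0020 and Nitab4.5_0010979g0030 had 0.90 and 0.70, and Nitab4.5_0000769g0010 and Nitab4.5_0000769g0020 had 0.73 and 0.41, each over 18 libraries. The other 6 pairs, farther apart in number, ran from -0.33 to 0.36 in root and from -0.39 to 0.49 in stalk. These pairs were picked out after their values were seen, and whether neighbours share reads was not tested.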
